A study of Mus musculus with 13 samples.

Results

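The 6 genes described here, Csf1, Csf2, Csf3, Il34, Flt3l and Thpo, encode secreted growth factors of blood cells. They were taken by symbol from the 33432 named genes of a table of RNA-seq values of mouse mesenchymal stromal cells (MSCs), and each symbol had 1 entry. MSCs are connective-tissue cells that line marrow and bone and supply signals to blood-forming cells. The 13 libraries came from C57BL/6 mice: 3 of healthy homeostatic MSCs from control mice, 6 of MSCs from pre-leukemic mice and 4 of MSCs labelled recovered, a name that matches the protocol's pre-leukemic mice treated with MSCs. The mutation behind the pre-leukemic state, the ages of the mice, the surface markers of the sort, the dose and time of the MSC treatment and whether replicates came from separate mice could not be read from the sources used here. All groups shared strain and tissue, and every library was made from polyadenylated RNA of target cells sorted out of mixed nucleated cells of marrow and compact bone. FPKM values correct fragment numbers for the length of a gene and the size of a library, so levels can be compared between genes.

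Colony-stimulating factors were named for the blood cell colonies they support in culture. CSF1 (M-CSF) and IL-34 are both ligands of the receptor tyrosine kinase CSF1R and keep monocytes, macrophages and osteoclasts alive. CSF2 (GM-CSF) acts through CSF2RA and a shared beta chain on granulocytes and macrophages, and CSF3 (G-CSF) drives neutrophil production through CSF3R. FLT3 ligand expands early progenitors and dendritic cells through FLT3, and thrombopoietin, made mostly in the liver, acts on megakaryocytes and blood stem cells. In marrow, stromal cells are a known source of CSF1.

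The libraries healthy 1 and healthy 3 differed by little more than sampling noise in their estimated reads (chi-square per gene 1.2 over 211 well-covered genes, against at least 21.7 in the other 23 pairs of libraries of the same group). They were averaged and counted as 1 sample, which leaves 6 pre-leukemic, 4 recovered and 2 healthy samples behind each mean ± SD. The p-values measure only the spread between these samples, which may be technical. By the spacing of low values, an estimate of depth, 3 reads on 1 kb correspond to 0.954 to 1.17 FPKM in the healthy group, 0.494 to 0.741 in the pre-leukemic group and 1.05 to 1.91 in the recovered group. Such limits reflect counting error alone. The libraries labelled pre-leukemic MSC were low in stromal markers and high in leukocyte markers. The summed FPKM of 13 mesenchymal markers was 3138 to 3699 in the healthy group, 97.8 to 251.8 in the pre-leukemic group and 1771 to 2566 in the recovered group, while that of 16 pan-leukocyte markers was 154.9 to 196.6, 3307 to 4826 and 84.9 to 415.8. In pre-leukemic libraries 54.9 to 80.5% of all FPKM came from immunoglobulin genes, elsewhere at most 0.134%. Erythroid markers summed to 1650 to 2638 FPKM in recovered libraries against 35.4 to 49.7 in healthy and at most 6.51 in pre-leukemic libraries.

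Csf1 was the most abundant of the 6 in healthy and recovered samples and Flt3l in pre-leukemic samples. In healthy samples the order by mean level was Csf1 (58.8 ± 22.9 FPKM), Flt3l (24.4 ± 7.53), Il34 (9.88 ± 2.32) and Thpo (3.02 ± 1.33), with Csf2 and Csf3 listed at 0. In pre-leukemic samples it was Flt3l (41.2 ± 8.80), Csf1 (8.80 ± 4.33), Csf2 (1.19 ± 1.14), Thpo (0.322 ± 0.788) and Il34 (0.246 ± 0.603), and the last 3 overlapped in their spread. In recovered samples it was Csf1 (91.6 ± 18.9), Il34 (8.21 ± 8.38), Flt3l (6.45 ± 1.80), Thpo (0.813 ± 1.63) and Csf2 (0.139 ± 0.277), where Il34 and Flt3l, and Thpo and Csf2, did not differ beyond their spread. The mean of Csf1 was above that of 90.2% of the 13118 genes tested in the healthy group, of 53.9% in the pre-leukemic group and of 92.4% in the recovered group. For Flt3l these shares were 78.3, 86.0 and 49.95%.

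**Figure D1:**
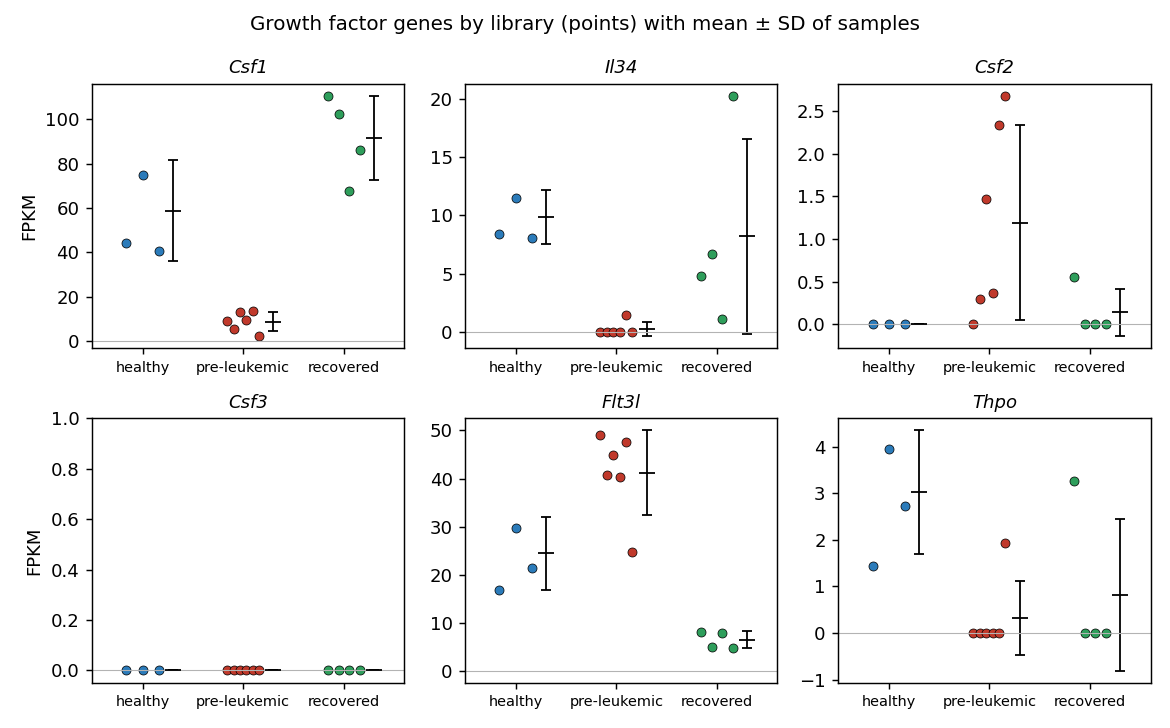
FPKM (vertical axes, linear, each with its own range) of the 6 growth factor genes in the 13 libraries, grouped as healthy, pre-leukemic and recovered. Points are libraries and the black marks are means ± SD over 2, 6 and 4 samples. All 6 pre-leukemic values of Csf1 (2.31 to 13.5) lie below the other groups, all 4 recovered values of Flt3l (4.82 to 8.18) lie lowest in their panel, and Csf3 is at 0 throughout.

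Csf1, the macrophage growth factor (GRCm38 chromosome 3, 107741048 to 107760469, minus strand), fell in pre-leukemic samples and was high again in recovered samples. Its FPKM was 44.4, 75.0 and 40.8 in healthy libraries 1 to 3. In pre-leukemic libraries the lowest value was 2.31, the median 9.30 and the highest 13.5. In recovered libraries 1 to 4 it was 110.6, 102.3, 67.8 and 85.9. Every pre-leukemic library was below every healthy and every recovered library, and the recovered and healthy ranges overlapped. On the log2(FPKM + 1) scale, on which low genes show too small a change, the change from healthy to pre-leukemic samples was -2.71 ± 0.55 (SE; limma adjusted p = 0.00197). From pre-leukemic to recovered samples it was 3.38 ± 0.43 (limma adjusted p = 2.9e-05), and from healthy to recovered samples 0.66 ± 0.58 (limma adjusted p = 0.642). The fall did not pass without healthy 2 (adjusted p = 0.0609), which leaves a single healthy sample. In bulk samples fewer cells of a type and less RNA per cell cannot be told apart, and the mesenchymal marker sum was lowest in the same 6 libraries. Its part in this result was not tested.

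The bases before the Csf1 start are shown beside those of Flt3l because these genes moved in opposite directions between pre-leukemic and recovered samples. Promoter windows of RefSeq (GRCm38.p6) were matched for Csf1, Csf2, Flt3l and Thpo. Each line gives the 250 bases before the annotated start, 5′ to 3′ on the gene's strand, with matches to searched motifs in capitals.
Csf1, chr3:107760470-107760719, minus strand: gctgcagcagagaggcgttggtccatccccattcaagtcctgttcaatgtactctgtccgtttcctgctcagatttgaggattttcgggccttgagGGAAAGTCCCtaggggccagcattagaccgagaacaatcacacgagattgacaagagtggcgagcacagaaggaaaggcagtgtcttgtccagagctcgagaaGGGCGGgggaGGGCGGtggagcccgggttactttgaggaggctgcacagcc
Flt3l, chr7:45136433-45136682, minus strand: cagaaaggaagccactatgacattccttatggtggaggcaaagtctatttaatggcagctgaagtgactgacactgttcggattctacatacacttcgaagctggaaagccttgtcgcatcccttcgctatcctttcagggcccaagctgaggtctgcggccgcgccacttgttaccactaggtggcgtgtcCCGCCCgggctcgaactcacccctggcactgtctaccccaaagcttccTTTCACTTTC

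In the Csf1 window the capitals at -154 to -145, counted back from the start, match the kappa-B consensus of NF-kappa-B on the reverse strand, and those at -51 to -46 and -41 to -36 match the GC box GGGCGG bound by Sp1-type factors. In the Flt3l window a GC box lies on the reverse strand at -58 to -53, and the last 10 bases before the start match GAAANNGAAA, a core of the interferon-stimulated response element, on the reverse strand. No 2 of these matches overlap. Of 32851 RefSeq windows of this length, searched on both strands, 7.25% held the kappa-B consensus, 32.7% a GC box and 2.98% GAAANNGAAA. The AP-1 site TGANTCA (6.75% of windows), the STAT core TTCNNNGAA (7.02%) and TATAAA (12.4%) were also searched and had no match in either window. The motifs were chosen after the sequences were seen, and a match is a description of letters, not of binding.

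Il34, the second ligand of CSF1R (chromosome 8, 110741829 to 110805924, minus strand), fell with Csf1 in pre-leukemic samples. It was at 8.42, 11.5 and 8.07 FPKM in healthy libraries 1 to 3. Of the pre-leukemic libraries 5 listed it at 0 and pre-leukemic 5 at 1.48. The recovered libraries 1 to 4 gave 4.81, 6.65, 1.08 and 20.3 FPKM. All pre-leukemic libraries were below all healthy ones, whereas recovered 3 lay below the highest pre-leukemic library and recovered 4 above every healthy library. The change was -3.21 ± 0.71 from healthy to pre-leukemic samples (limma adjusted p = 0.00365) and 2.52 ± 0.56 from pre-leukemic to recovered samples (limma adjusted p = 0.00258). Recovered and healthy samples did not differ beyond the threshold (-0.69 ± 0.75, limma adjusted p = 0.727). Without healthy 2 the fall did not pass (adjusted p = 0.061), and the recovered mean of 8.21 ± 8.38 FPKM was 4.18 without recovered 4. The pre-leukemic mean of 0.246 FPKM was 0 without pre-leukemic 5.

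Csf1 was more abundant than Il34 in every library. Il34 made up 13.3 to 16.5% of the summed FPKM of the 2 CSF1R ligands in the healthy group, 0 to 9.86% in the pre-leukemic group and 1.57 to 19.1% in the recovered group. The pre-leukemic libraries lay below the healthy ones, and the recovered ones overlapped both. These shares are computed within a library, so no scaling between libraries enters them, and they are given as a description.

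Csf2, the granulocyte-macrophage factor (chromosome 11, 54247271 to 54249667, minus strand), stayed near the detection limit. It was listed at 0 in all 3 healthy libraries. In pre-leukemic libraries 1 to 6 it was at 0, 0.301, 1.46, 0.366, 2.34 and 2.68 FPKM, at most about 11.4 estimated reads on its transcript of 800 bases. Among recovered libraries it was at 0.555 FPKM in recovered 1, about 1.13 reads, and at 0 in the other 3. On that transcript 3 reads correspond to 1.19 to 1.46 FPKM in the healthy group, 0.617 to 0.926 in the pre-leukemic group and 1.31 to 2.39 in the recovered group. A difference was not detectable at this depth: limma's adjusted p was 0.181 for pre-leukemic versus healthy, 0.128 for recovered versus pre-leukemic (-0.80 ± 0.40) and 0.951 for recovered versus healthy samples.

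Csf3, the neutrophil factor (chromosome 11, 98701263 to 98703629, plus strand), was listed at 0 in all 13 libraries and was not tested. On its transcript of 1413 bases 3 reads correspond to 0.675 to 0.829 FPKM in the healthy group, 0.349 to 0.524 in the pre-leukemic group and 0.743 to 1.35 in the recovered group. An entry of 0 in a table without counts can also be a failed estimate.

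Flt3l, the ligand of FLT3 (chromosome 7, 45129788 to 45136432, minus strand), was lower in recovered than in pre-leukemic samples, opposite to Csf1 and Il34. Its FPKM was 16.8, 29.7 and 21.4 in healthy libraries 1 to 3. The lowest pre-leukemic value was 24.7 (pre-leukemic 6), the median 42.9 and the highest 49.0. Recovered libraries 1 to 4 were at 8.18, 4.97, 7.82 and 4.82. Each recovered library was below every library of the other groups, and the pre-leukemic range reached down to the healthy one through pre-leukemic 6. The change from pre-leukemic to recovered samples was -2.50 ± 0.34 (limma adjusted p = 4.5e-05). On the TPM scale, with every library set to the same sum, it was -1.13 ± 0.45 and did not pass (adjusted p = 0.0609). Recovered versus healthy samples did not pass (-1.77 ± 0.45, limma adjusted p = 0.0566), although all 4 recovered libraries were below both healthy samples, as 11.9% of tested genes were. That comparison passed without recovered 1 (0.0334) or recovered 3 (0.0389).

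For Flt3l in pre-leukemic versus healthy samples the direction depended on the scaling. The change was 0.73 ± 0.43 in FPKM (limma adjusted p = 0.221) and -0.88 ± 0.57 on the TPM scale (adjusted p = 0.234), and neither passed. On the TPM scale the ranges were 27.3 to 47.5 in the healthy group, 10.2 to 40.0 in the pre-leukemic group and 6.90 to 13.1 in the recovered group. That scale moved the median of all genes by -1.28 in this comparison and by 0.99 in recovered versus pre-leukemic samples. Relative to the median of all genes the change of Flt3l from healthy to pre-leukemic samples was 0.54 in FPKM and 0.20 on the TPM scale, and from pre-leukemic to recovered samples -2.10 and -1.71. Markers of T and NK cells, which are known to make FLT3 ligand, summed to 18.8 to 37.0 FPKM in the healthy group, 673.5 to 1017 in the pre-leukemic group and 8.95 to 77.9 in the recovered group. Of these 15 markers 13 were higher in pre-leukemic than in healthy samples, where 14.2% of all tested genes were. In recovered versus pre-leukemic samples 14 were lower, where 25.1% of all tested genes were. These counts are on the FPKM scale. Cd3d, Gzma, Gzmb and Trac were at 0 in every healthy and recovered library. They would not have passed the filter on low values without the pre-leukemic libraries. The same holds for Cd2, Cd3e, Cd4, Cd5, Cd8a, Il2rb and Klrd1, so the marker counts are largely set by the filter. The part of T and NK cells in the level of Flt3l was not tested. Flt3l also shares 856 exonic bases with the gene model Gm45713 on the same strand, which is not analysed here.

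The balance between Csf1 and Flt3l within a library, which no scaling can move, separated the groups. Csf1 was 1.91 to 2.65 times Flt3l in the healthy group, 0.0937 to 0.289 times in the pre-leukemic group and 8.67 to 20.6 times in the recovered group. No library of one group lay within the range of another. As shares of the summed FPKM of the 6 genes, Csf1 held 55.9 to 62.6, 7.32 to 21.8 and 77.4 to 89.8% in the same order, and Flt3l 23.6 to 29.3, 73.3 to 87.8 and 4.34 to 10.2%. The sum itself was 71.1 to 120.2 FPKM in the healthy group, 31.6 to 64.8 in the pre-leukemic group and 76.7 to 127.4 in the recovered group. Csf1 and Flt3l moved in opposite directions between pre-leukemic and recovered samples, so a separation of those groups follows from the choice of pair. How many other pairs of genes separate the groups was not counted. The mesenchymal marker sum did not overlap between the groups either, and its part in the ratio was not tested. All these values are descriptions without a test.

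**Figure D2:**
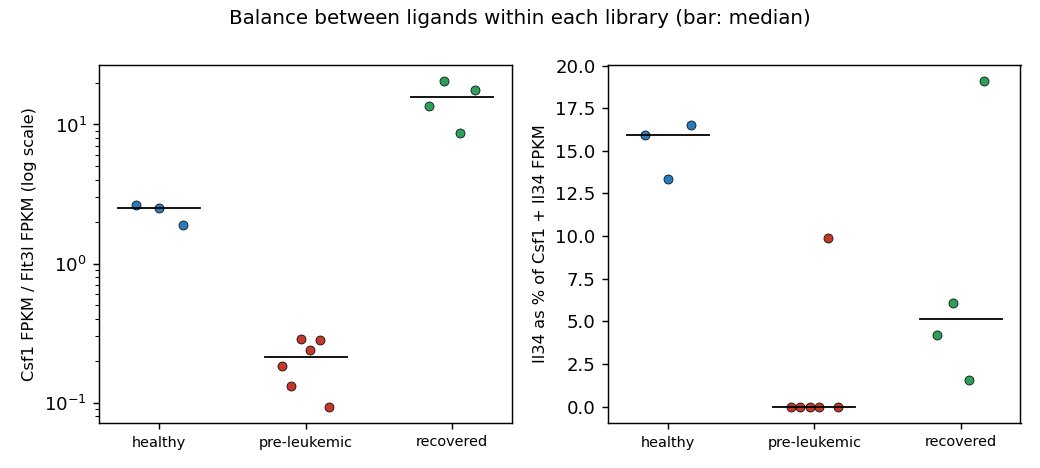
Left, the ratio of Csf1 to Flt3l FPKM in each of the 13 libraries on a log axis. Right, Il34 as a percentage of the summed FPKM of Csf1 and Il34 on a linear axis, with bars at group medians in both panels. The ratio lies between 0.0937 and 0.289 in pre-leukemic, 1.91 and 2.65 in healthy and 8.67 and 20.6 in recovered libraries, without overlap, while the Il34 share overlaps between recovered libraries and both other groups.

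Thpo, which encodes thrombopoietin (chromosome 16, 20724454 to 20734511, minus strand), was low in all groups. Its FPKM was 1.43, 3.96 and 2.73 in healthy libraries 1 to 3, which is about 10.9 to 24.5 reads on its longest transcript. It was listed at 0 in 5 pre-leukemic libraries and at 1.93 in pre-leukemic 6, and at 0 in 3 recovered libraries and at 3.25 in recovered 1. Without the healthy libraries, where its mean was highest, it would not have passed the filter on low values. Pre-leukemic 6 was above healthy 1 but below the mean of healthy 1 and 3, so these groups overlap by library and not by sample, and the recovered libraries overlapped both groups. The fall from healthy to pre-leukemic samples passed narrowly (-1.71 ± 0.60, limma adjusted p = 0.0489) and in 10 of 23 settings (adjusted p 0.00763 to 0.336), and did not pass without healthy 2 (0.336), healthy 3 (0.0815), any 1 of pre-leukemic 1 to 5 (0.0723 to 0.0784), recovered 2 (0.0517) or recovered 4 (0.0513). Recovered samples did not differ beyond the threshold from pre-leukemic (0.26 ± 0.48, limma adjusted p = 0.688) or healthy samples (-1.44 ± 0.64, limma adjusted p = 0.276). The last comparison passed without recovered 1, at an adjusted p of 0.0452. Thpo shares 239 exonic bases with Chrd, a BMP antagonist gene on the opposite strand, and reads from these bases cannot be told apart where strand is not recorded. Chrd was at 7.54 to 9.45 FPKM in the healthy group, 0 to 1.72 in the pre-leukemic group and 1.53 to 13.1 in the recovered group.

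By count, 3 of the 5 tested growth factor genes were lower in pre-leukemic than in healthy samples (Csf1, Il34 and Thpo) and 0 were higher, where 13.1% of all tested genes were lower, 14.2% higher and 27.3% called in either direction. The same 3 genes had groups that did not overlap, as 21.8% of genes did in that direction, and 0 did so upwards, as 24.9% of genes did. In recovered versus pre-leukemic samples Csf1 and Il34 were higher (14.8% of tested genes were) and Flt3l was lower (25.1% were), with 40.0% called in either direction. The groups did not overlap for Csf1, as for 10.7% of genes in that direction, or for Flt3l, as for 16.5%. These first 2 comparisons share the pre-leukemic samples. Thpo would not have passed the filter on low values without the healthy libraries, nor Csf2 without the pre-leukemic ones. The counts are therefore partly set by the filter. In recovered versus healthy samples limma called 0 of 5 (background 2.51% in either direction and 1.99% lower), and none of the 5 lay higher without overlap, as 7.28% did, while 2, Flt3l and Thpo, had an unadjusted p under 0.05. The median change of the 5 was -1.71, 0.26 and -0.69 in these comparisons, beside 0.20, -0.41 and -0.08 over all genes tested. Without healthy 2 the first count was 0 of 5.

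**Figure D3:**
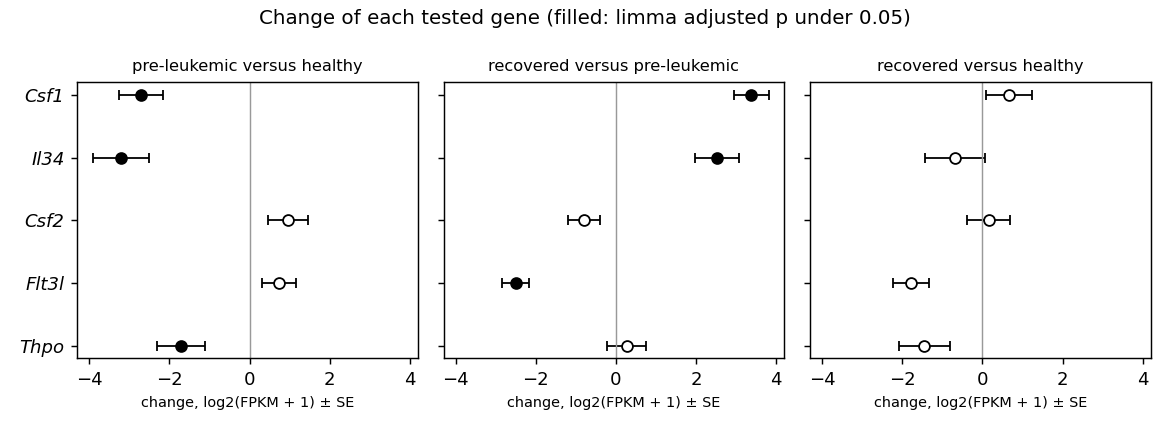
Change on the log2(FPKM + 1) scale (horizontal axes) with its SE for the 5 tested genes in the 3 comparisons. Filled points passed limma's adjusted p threshold of 0.05 and open points did not. Csf1 is at -2.71 and 3.38 in the first 2 panels and Flt3l at -2.50 in the second, and no point is filled in the third.

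Most receptors of these factors were highest in pre-leukemic samples. Of 7 tested receptor genes 6 were higher in pre-leukemic than in healthy samples and 0 lower, where 14.2% of all tested genes were higher. The same 6 were lower in recovered than in pre-leukemic samples, where 25.1% of all genes were. Csf1r, Csf3r, Flt3, Csf2rb and Csf2rb2 would not have passed the filter on low values without the pre-leukemic libraries. Ptprz1, at 0 in all of those, did not pass it, so these counts are partly set by the filter. Csf2rb2 is counted here although its chain is not a receptor of the 6 factors. Without healthy 2 the first count was 1 of 6 tested (Csf2rb), and on the TPM scale it was 2 of 7 (Csf2rb and Csf2rb2). On the TPM scale the second count was 3 (Csf2rb, Csf2rb2 and Flt3). In recovered versus healthy samples limma called 0 of 7, and 0 had an unadjusted p under 0.05. The pan-leukocyte markers moved the same way in the same libraries, with 16 of 16 higher in pre-leukemic samples (median change 4.74 over the list), and their part in the receptor values was not tested.

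Csf1r, the receptor of CSF1 and IL-34, was near 0 in every group. It was at 0.407, 1.32 and 0 FPKM in healthy libraries 1 to 3, had a median of 0.216 and a highest value of 2.2 (pre-leukemic 1) in pre-leukemic libraries, and was at 0, 0.089, 1.10 and 0.150 in recovered libraries 1 to 4. Csf1r reached 1 FPKM only in healthy 2, pre-leukemic 1 and recovered 3, just enough for the filter on low values. The 3 groups overlapped, and the change from healthy to pre-leukemic samples was -0.27 ± 0.50 (limma adjusted p = 0.726). Other monocyte markers were not near 0 in pre-leukemic samples, where the 12 genes of that list summed to 3416 to 5172 FPKM, against 63.7 to 75.2 in healthy and 38.2 to 133.4 in recovered libraries. Emr1, Ccr2 and Itgam of that list were at 0 in every healthy library. Ptprz1, a further receptor of IL-34, was at 0.444 to 1.94 FPKM in healthy libraries, at 0 in pre-leukemic libraries and at 0 in 3 of 4 recovered libraries, and did not pass the filter on low values. Sdc1, a proteoglycan that binds IL-34 and also marks plasma cells, was at 30.2 ± 3.99, 66.8 ± 15.2 and 33.6 ± 9.83 FPKM in healthy, pre-leukemic and recovered samples. It rose (1.10 ± 0.38, limma adjusted p = 0.043) and fell again (-0.98 ± 0.30, limma adjusted p = 0.0173) in FPKM, but both directions flipped on the TPM scale (-0.54 and 0.45), and the rise did not pass without healthy 2 (0.281) or any 1 of pre-leukemic 1, 2, 3, 4 and 6 (0.0553 to 0.0738).

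The GM-CSF receptor genes Csf2ra and Csf2rb rose while Csf2 stayed near its limit. Csf2ra, the ligand-binding chain, was at 2.65 ± 1.97 FPKM in the healthy group, 11.9 ± 1.98 in the pre-leukemic group and 2.67 ± 2.21 in the recovered group. Its rise (1.93 ± 0.61, limma adjusted p = 0.0307) did not pass on the TPM scale (0.567), with a pseudocount of 0.1 (0.0801), or without healthy 2 (0.337), pre-leukemic 1 (0.0507) or pre-leukemic 6 (0.0512). Its fall (-2.06 ± 0.48, limma adjusted p = 0.00386) did not pass on the TPM scale (0.258). The shared beta chain Csf2rb was at 0.443 ± 0.246, 21.1 ± 14.6 and 0.543 ± 0.456 FPKM, with no overlap between pre-leukemic libraries (7.83 to 39.7) and the others. It rose by 3.68 ± 0.65 and fell by 3.62 ± 0.51 (limma adjusted p = 0.000728 and 6.9e-05). Csf2rb2, a near-identical copy, encodes a beta chain specific to IL-3, which is not among the 6 factors. Its reads can be assigned to Csf2rb and the reverse. Csf2rb2 was at 0.0328 ± 0.0464, 17.0 ± 16.3 and 0.347 ± 0.580 FPKM. Its changes also passed (limma adjusted p = 0.00381 and 0.000866), the rise not without healthy 2 (0.0517).

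The receptors of G-CSF and FLT3 ligand also had their highest mean in pre-leukemic samples. Csf3r, the G-CSF receptor of the neutrophil lineage, was at 0.0737 ± 0.104, 3.56 ± 2.32 and 0.364 ± 0.114 FPKM. Its rise (1.90 ± 0.56, limma adjusted p = 0.0208) passed in FPKM but not on the TPM scale (0.0627) or without healthy 2 (0.17), and its later fall (-1.56 ± 0.44, limma adjusted p = 0.0123) did not pass with quantile normalization (0.237) or on the TPM scale (0.117). Flt3 was at 1.26 ± 0.43, 6.79 ± 3.86 and 0.298 ± 0.116 FPKM. Its fall to recovered samples (-2.46 ± 0.41, limma adjusted p = 0.00029) had the same direction as that of Flt3l. Its rise (1.67 ± 0.52, limma adjusted p = 0.0275) did not pass on the TPM scale (0.486), with quantile normalization (0.0678) or a pseudocount of 0.1 (0.0516), or without healthy 2 (0.118).

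**Figure D4:**
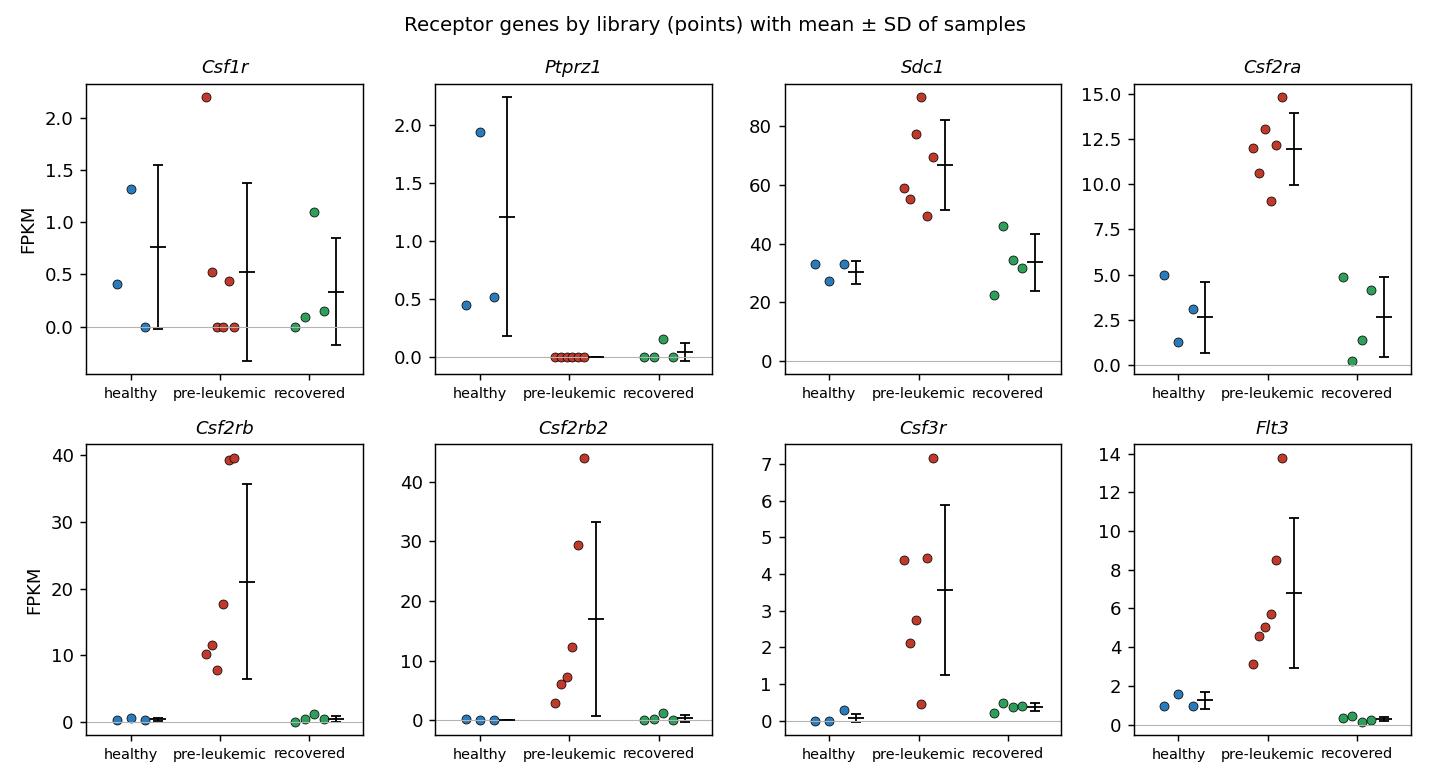
FPKM (vertical axes, linear, each with its own range) of 8 receptor genes in the 13 libraries by group, with means ± SD over 2 healthy, 6 pre-leukemic and 4 recovered samples. The pre-leukemic points of Sdc1, Csf2ra, Csf2rb, Csf2rb2 and Flt3 lie above all points of the other groups. Csf1r overlaps between groups and stays at or below 2.2.

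Among 18 other haematopoietic cytokines, 14 of them tested, 2 were higher and 4 lower in pre-leukemic than in healthy samples, where 14.2% of all tested genes were higher and 13.1% lower. The higher count is near that background and was 1 without any 1 of pre-leukemic 1, 2, 3, 4 and 6. Without healthy 2 the counts were 0 and 2 (Il6 and Cxcl12). The 4 lower were Il6, Cxcl12, Il11 and Il33. Il6, an inflammatory cytokine of stroma, was at 166.9 ± 22.3 FPKM in the healthy group, 3.35 ± 2.86 in the pre-leukemic group and 115.4 ± 58.4 in the recovered group (-5.68 ± 0.80, limma adjusted p = 0.000126). Il11 and Il33 passed less firmly (limma adjusted p = 0.00301 and 0.0306). Without healthy 2, which leaves a single healthy sample, neither passed, with changes of -2.08 and -2.03. Il33 also did not pass without pre-leukemic 1, 2 or 5 (limma adjusted p = 0.0504 to 0.0515). Nor did it with a pseudocount of 0.1 (0.0613) or with no filter on low values (0.0551). In recovered versus pre-leukemic samples 5 were higher and 1 lower (all genes 14.8% and 25.1%; 2 lower without pre-leukemic 5 and 3 without recovered 4), with Il6 up by 5.02 ± 0.63 (limma adjusted p = 2.6e-05), and in recovered versus healthy samples limma called 0 of 14, with 1 at an unadjusted p under 0.05 (Il11). Cxcl12, the chemokine that holds stem cells in marrow, passed in both of the first 2 comparisons. Csf1 and Il34 had the directions of Il6 and Cxcl12, in libraries where 8 of 12 tested mesenchymal markers were lower in pre-leukemic than in healthy samples and 10 of 12 higher in recovered than in pre-leukemic samples. Cxcl12 is itself on that marker list and in both of its counts.

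Of 20 tested genes that carry or limit cytokine signals, 4 were higher and 2 lower in pre-leukemic than in healthy samples, where 14.2 and 13.1% of all genes were. In recovered versus pre-leukemic samples 5 were higher and 6 lower, where 14.8 and 25.1% of all genes were. These counts are near the background and say nothing about the list. Without healthy 2 the first counts were 2 and 2, and without recovered 3 the later higher count was 3. On the TPM scale they were 2 and 9, then 8 and 4. Cish, a feedback gene of STAT5, was at 8.56 ± 4.63, 74.2 ± 27.7 and 7.24 ± 1.76 FPKM in healthy, pre-leukemic and recovered samples (3.0 ± 0.45 and -3.15 ± 0.36, limma adjusted p = 0.000212 and 9.4e-06). Pim2, a kinase induced by cytokines, had the same directions (limma adjusted p = 8.4e-05 and 6.4e-06). Socs3, the feedback inhibitor of STAT3 and of the G-CSF receptor, ran the other way, at 319.9 ± 22.1, 30.3 ± 8.77 and 177.8 ± 31.1 FPKM (-3.40 ± 0.35 and 2.54 ± 0.28, limma adjusted p = 9.7e-06 and 6.8e-06). In recovered versus healthy samples limma called 0 of 20, with 2 at an unadjusted p under 0.05.

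Of 17 tested inducers and regulators of colony-stimulating factors, 3 were higher, near the background of 14.2%, and 5 lower, where 13.1% of all genes were, in pre-leukemic than in healthy samples. Without healthy 2 the counts were 2 and 3, and on the TPM scale 2 and 9. The cytokines Tnf and Ifng, inducers of Csf1 in many cells, were listed at 0 in every healthy library and averaged 13.4 ± 4.95 and 19.5 ± 7.91 FPKM in pre-leukemic samples (limma adjusted p = 0.000155 and 3.9e-05). Neither would have passed the filter on low values without the pre-leukemic libraries, so the counts of this list are partly set by the filter. The TNF receptor Tnfrsf1a fell from 179.3 ± 56.3 to 21.8 ± 6.30 (-2.99 ± 0.37, limma adjusted p = 4.3e-05) and was at 194.7 ± 29.9 in recovered samples. In recovered versus pre-leukemic samples 6 genes of the list were higher and 5 lower (all genes 14.8% and 25.1%), against 11 and 3 on the TPM scale. Cebpb, a transcription factor of Il6 and Csf3 regulation, was at 58.1 ± 9.21, 5.87 ± 1.70 and 340.5 ± 184.7 FPKM. It was the 1 gene of the list called in recovered versus healthy samples, where 0.518% of all tested genes were higher (2.37 ± 0.51, limma adjusted p = 0.0261), and that call ended with only these groups in the fit (0.205) and without healthy 2 (0.279).

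CSF1 and FLT3 ligand are also made as membrane-bound forms that proteases release. Of 7 genes of such enzymes and their partners, 0 were higher and 1 lower in pre-leukemic than in healthy samples, which is near the 13.1% of all genes that were lower there. The lower count was 2 without recovered 2 or recovered 3 and 5 on the TPM scale. In recovered versus pre-leukemic samples 5 were higher and 0 lower, where 14.8 and 25.1% of all genes were. Adam17, the sheddase of many membrane proteins, was at 62.1 ± 36.2, 26.7 ± 7.03 and 108.5 ± 68.8 FPKM and passed in the second comparison only (1.78 ± 0.44, limma adjusted p = 0.00548). Furin, a proprotein convertase, and Rhbdf1, a partner of ADAM17, passed there too (limma adjusted p = 0.00816 and 0.00955), as did Pcsk5 (0.0382), which did not pass in 9 settings, among them without any 1 of pre-leukemic 1 to 4 or of recovered 1, 2 and 4 (0.0657 to 0.124). Timp3, an inhibitor of ADAM17, was at 28.6 ± 5.32, 0.536 ± 0.570 and 5.40 ± 2.19 FPKM. It was lower in pre-leukemic samples (-4.33 ± 0.52, limma adjusted p = 3.3e-05) and in recovered versus healthy samples (-2.26 ± 0.55, limma adjusted p = 0.0458). The latter call ended in 19 of 24 settings, among them without any 1 healthy or pre-leukemic library or recovered 2, 3 or 4, and reached an adjusted p of 0.459 without healthy 2.

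The genes most like each growth factor gene were those with the highest Pearson correlation of log2(FPKM + 1) over the 12 samples, which share the 3 groups, so any gene with the same group pattern scores high. For Csf1 they were Angptl4 (r = 0.98), Myeov2, Cdk14, Fxyd1 and Cp (down to r = 0.97). Angptl4, a secreted regulator of lipoprotein lipase, was at 57.6 ± 1.73, 2.80 ± 1.86 and 75.6 ± 23.0 FPKM in healthy, pre-leukemic and recovered samples. For Il34 they were Ncam1 (r = 0.96), Rpph1, Abat, Sorbs3 and Emc10 (down to r = 0.95), and for Flt3l Mtmr12 (r = 0.98), Golph3l, Frmd8, Rpap2 and Cxxc1 (down to r = 0.97). Thpo was most like Fgfr3 (r = 0.93), Dock1, Lurap1l, Igsf10 and Rab40b (down to r = 0.89), and the sparse Csf2 most like Olfr157 (r = 0.95), Grhl3, Mansc1, Mycl and Thumpd2 (down to r = 0.91).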

How the data were processed

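RNA-seq libraries of sorted mouse MSCs were made with a Nextera XT kit, per the labels' protocols. The tools in the submitters' processing notes are Cufflinks 2.2.1, Cuffnorm, TopHat and bcl2fastq, with the build mm10. The authors deposited FPKM per gene, but the sources used here do not give the library-size method, the annotation or the use of strand. Healthy 1 and healthy 3 were averaged and counted as 1 sample. Coordinates are from GENCODE M21 (GRCm38, the same build), which held 32014 of 33432 symbols, and 1 row without a name was left out. Depth was estimated from 5240 single-transcript genes of 800 bp or more, with a tolerance of 0.1 on the log2 scale. These depths are rough.

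The test was limma 3.58.1 under R 4.3.3, with a trended prior, on log2(FPKM + 1). A single fit held the 12 samples of the 3 groups (9 residual degrees of freedom) and the 13118 genes that reached 1 FPKM in 3 or more libraries. Calls are Benjamini-Hochberg adjusted p-values under 0.05. The steps were tested on simulated data. Python 3.11.15 with pandas 2.3.3 and matplotlib 3.10.9 made summaries and plots. The 6 genes, the lists and the alternatives were chosen with earlier results of these data known. Named were the 6, all receptors but 1 that is not reported here, the 3 called genes of smallest p in each other list and comparison (all where at most 5 were called; some of these are given by count only), and the 5 genes most like each tested one. The share of windows with a motif was taken over the 250 bases before each RefSeq start.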

Additional observations from a re-analysis of the deposited data

Results flagged for a closer look

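In groups of 4 or 6 libraries a library can stand apart from the rest by Dixon's ratio at the 95% level. For normal values chance alone gives this in about 1 of 20 groups, a rate that does not hold where most values are 0. Among the growth factor genes these were Csf2 in recovered 1 (0.555 FPKM), Il34 in pre-leukemic 5 (1.48), Flt3l in pre-leukemic 6 (24.7, the lowest of its group), and Thpo in pre-leukemic 6 (1.93) and recovered 1 (3.25). For Csf2, Il34 and Thpo, and for Ptprz1 and Il11 below, the other libraries of those groups were at 0, so any value above 0 would be flagged. Among receptors these were Csf1r in pre-leukemic 1 (2.2) and recovered 3 (1.10), and Ptprz1 (0.152) and Csf2rb2 (1.21) in recovered 3. Cxcl12 was highest in pre-leukemic 1 (123.6), and Il11 (0.402) and Cish (128.9) were highest in pre-leukemic 3.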

How the results depend on the processing

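The rise of Csf1 and of Il34 from pre-leukemic to recovered samples kept its direction and its call in every setting run (adjusted p at most 0.000373 and 0.00751), and the fall of Flt3l did so in all but the TPM scale. The number of genes called in pre-leukemic versus healthy samples was 3, 1 with a mean of at least 5 FPKM, which left 2 tested, and 0 to 3 leaving out 1 library. In recovered versus healthy samples it was 0, and 1 (Flt3l) with no filter on low values, with healthy 1 and 3 kept apart and with sums made equal over all but immunoglobulin genes, and 0 to 2 leaving out 1 library. Directions reversed for Flt3l (-0.88) and Sdc1 (-0.54) in pre-leukemic versus healthy samples and for Sdc1 (0.45) in recovered versus pre-leukemic samples, all on the TPM scale, and for Thpo in recovered versus pre-leukemic samples without recovered 1 (-0.26; up to 0.52 leaving out pre-leukemic 6). The cause was not tested. Deviations of same-numbered libraries from their group means correlated at -0.0194 to 0.0337, which shows no pairing by number but cannot exclude it. With replicate number as a block, fitted to 13 separate libraries, 3, 3 and 0 of 5 genes were called in the 3 comparisons, as without it. The block did end calls of receptors: the rises of Sdc1 (adjusted p = 0.0742), Csf2ra (0.0687) and Flt3 (0.0563), which left 3 of 7 receptors higher, and the fall of Csf3r (0.055). It also ended the call of Timp3 in recovered versus healthy samples (0.0711). Quantile normalization moved the median of all genes by -0.13, 0.33 and 0.11 and equal sums without immunoglobulin genes by 0.11, -0.23 and -0.13. Levels under about 1 FPKM, as for Csf2 and Csf3, rest on few or no reads.
Over all genes, 1858 were higher and 1725 lower in pre-leukemic than in healthy samples, against 791 and 4200 on the TPM scale. In recovered versus pre-leukemic samples 1945 were higher and 3299 lower, against 3768 and 1213 on the TPM scale and 2460 and 2424 with quantile normalization.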
